A study of Mus musculus with 10 samples.

Results

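Tubulin isotypes were followed through neocortex neurogenesis by counting ribosome-protected mRNA fragments (RPFs) on 10 tubulin genes. The genes were 3 alpha tubulin genes (Tuba1a, Tuba1b and Tuba1c), 6 beta tubulin genes (Tubb2a, Tubb2b, Tubb3, Tubb4a, Tubb5 and Tubb6) and the gamma tubulin gene Tubg1. They were picked out by symbol, as 10 of the 22373 genes in the count table, which holds 10 other tubulin genes. All 10 passed the filter of 32 footprints in at least 1 stage, and their mean counts per library ranged from 402.4 for Tubg1 to 111300 for Tuba1a. For 9 of the 10, footprint levels rose in steps from E12.5 to P0. With library sizes scaled, Tubg1 was lower at P0 than at E12.5. With library sizes left unscaled, its log2 fold change was -0.050.

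Microtubules are built from dimers of 1 alpha and 1 beta tubulin, and mammals encode several isotypes of each that differ mainly in their C-terminal tails. Dividing neural stem cells need tubulin for the mitotic spindle, whereas postmitotic neurons need it for migration, axons and dendrites. Gamma tubulin does not form the microtubule wall but sits in a ring complex that starts new microtubules. Mutations in several of the human counterparts, among them TUBA1A, TUBB2B, TUBB3 and TUBB5 (TUBB), cause malformations of the cerebral cortex.

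The study profiled ribosomes in wild-type CD-1 mouse neocortex at 5 stages, of which E12.5 was the first and P0, the day of birth, the last, with E14, E15.5 and E17 between them. Embryonic stages count days of gestation in timed pregnant mice. No group was treated or carried a transgene, and RNase T1 with RNase A trimmed the RNA outside ribosomes in all libraries. Each stage had 2 libraries, each from its own pool of brains of both sexes. Thus n = 2 counts pools, and p-values of comparisons between stages in limma-voom measure the spread between pools. Depth ran from 7544404 counts in P0 replicate 1 to 36129988 counts in E14 replicate 2.

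Footprints on a gene reflect both how much of its mRNA is present and how densely ribosomes occupy it, and only footprints were analysed here. In tissue of mixed cells, fewer cells of a type and less RNA per cell cannot be told apart. The tissue carried neuronal and radial glia markers at all stages, and the replicates differed most at P0, with a chi-square per degree of freedom of 94.2 against 9.39 to 44.6 at the embryonic stages. Levels below are in CPM, the counts of a gene relative to the size of its library, with library sizes scaled by the trimmed mean of M values (TMM). CPM is not divided by gene length, so levels are compared between stages of 1 gene and not between genes.

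Tubulin took up a growing share of all footprints. The 10 genes together held 0.797% and 0.856% of counts in the E12.5 libraries and 1.05% and 0.908% in those of E14. The share was then 2.06% and 1.98% in the E15.5 libraries, 2.07% and 2.18% in those of E17, and 3.95% and 3.03% in those of P0. Both libraries of E15.5 and of every later stage lay above all 4 libraries of E12.5 and E14, and the E17 libraries lay just above those of E15.5. Tuba1c, whose counts nearly equalled those of Tuba1b, is included in full. Without it the share was 0.636% and 0.679% in the E12.5 libraries and 3.14% and 2.49% in those of P0. Histone genes, which are counted in the same totals, moved the other way, from 32.7% to 38.5% of counts in the E12.5 and E14 libraries to 6.32% and 9.83% at P0, and their part in the share of tubulin was not tested.

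**Figure D1:**
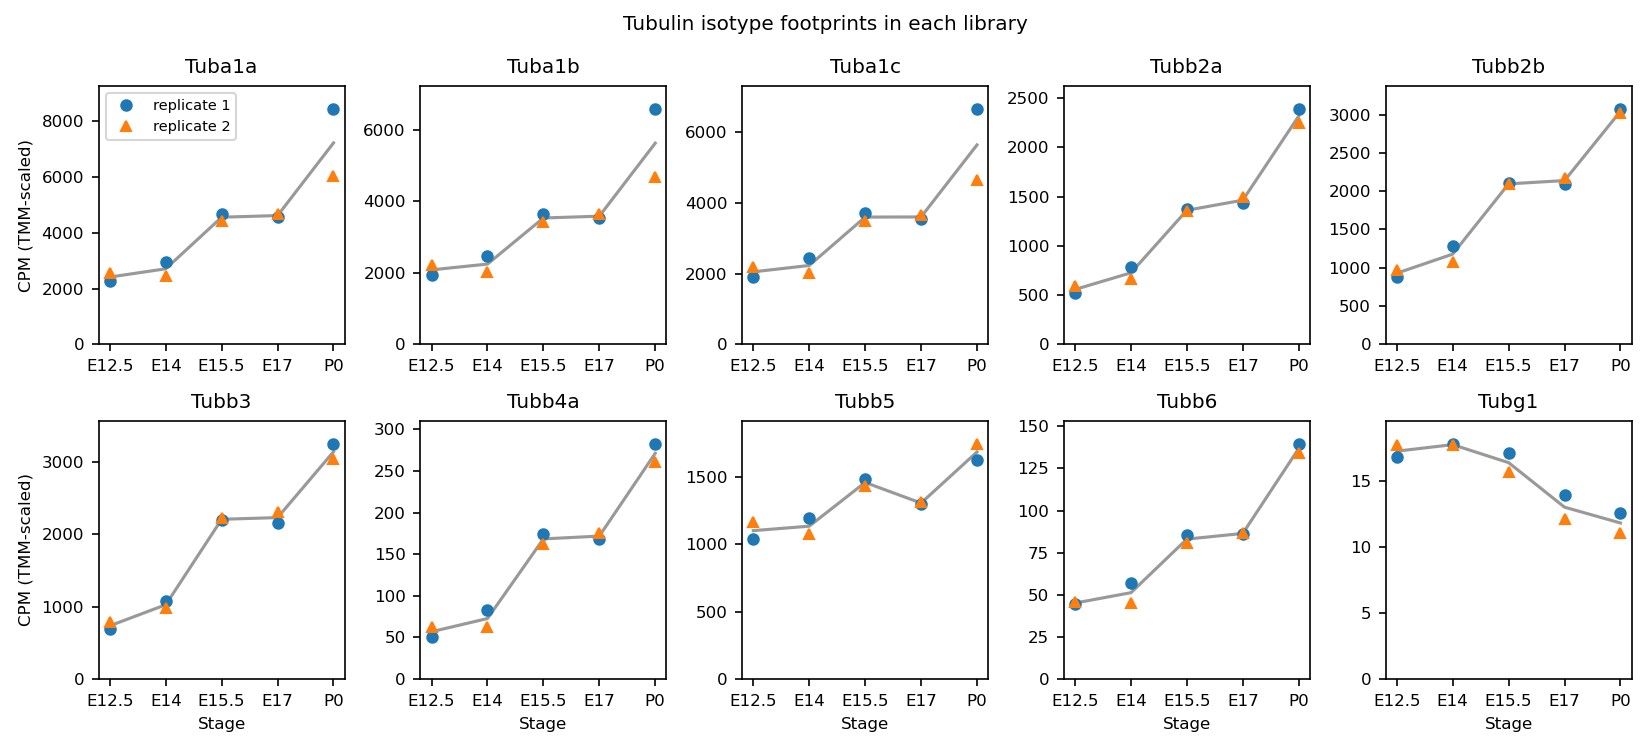
Footprint level of each tubulin gene in CPM on TMM-scaled library sizes, against stage. Circles and triangles are the libraries of replicates 1 and 2, and the line joins the means of the 2 libraries. Each vertical axis starts at 0 and has its own range. Tubb3 climbs from 690.3 and 783 CPM at E12.5 to 3244 and 3038 at P0, Tubb5 stays between 1040 and 1742 CPM, and Tubg1 falls from 16.8 and 17.7 to 12.6 and 11.1 CPM.

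Tubb3 encodes class III beta tubulin, the isotype of postmitotic neurons. Its level was 690.3 and 783 CPM in the E12.5 libraries, 1074 and 981 in those of E14, 2196 and 2220 in those of E15.5, 2160 and 2303 in those of E17, and 3244 and 3038 in those of P0. Each stage was above the one before it without overlap except E17, whose libraries lay on either side of those of E15.5. From E14 to E15.5 Tubb3 rose by 1.10 ± 0.10 (SE) on the log2 scale, a 2.15-fold change, with an adjusted p of 0.000181 in limma-voom. Over the whole course it rose 4.28-fold (log2 fold change 2.10 ± 0.10, limma-voom adjusted p = 1.28e-06).

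Tubb5 encodes the class I beta tubulin of proliferating cells, which is made in most tissues. It had 1040 and 1163 CPM in the E12.5 libraries, 1193 and 1076 in those of E14, 1484 and 1434 in those of E15.5, 1298 and 1314 in those of E17, and 1628 and 1742 in those of P0. The early stages overlapped, E17 lay below E15.5, and P0 was highest. In log2 the rise from E14 to E15.5 was 0.36 ± 0.10 (limma-voom adjusted p = 0.0219), and that over the whole course was 0.61 ± 0.10 (adjusted p = 0.000806 in limma-voom). The fold change from E12.5 to P0 was thus 1.53 for Tubb5 beside 4.28 for Tubb3.

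The sequences upstream of these 2 genes are shown because Tubb3 and Tubb5 made the largest gain and the largest loss of share among beta tubulins, described further on. Each is the stretch of 120 bases that ends 1 base before the annotated start of the gene, read on the gene's strand from RefSeq GRCm38.p6. Capitals mark matches, on either strand, to a GC box (GGGCGG) or a CCAAT box (CCAAT).
Tubb3 (chr8:123411433-123411552, plus strand): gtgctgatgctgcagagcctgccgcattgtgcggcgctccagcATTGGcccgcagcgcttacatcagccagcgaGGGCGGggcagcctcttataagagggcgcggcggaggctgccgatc
Tubb5 (chr17:35838302-35838421, minus strand): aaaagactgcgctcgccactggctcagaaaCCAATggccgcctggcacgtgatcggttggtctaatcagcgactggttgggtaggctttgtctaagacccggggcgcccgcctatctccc
Tubb3 held GC boxes beginning 138 and 46 bases upstream of the start and a CCAAT box, read on the other strand, 77 bases upstream. Tubb5 held CCAAT boxes 198 and 90 bases upstream and no GC box in the 250 bases before its start. GC content of the printed stretch was 67.5% for Tubb3 and 60.0% for Tubb5.

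Tubb2a and Tubb2b encode a pair of class II beta tubulins that are abundant in brain, and both genes lie on chromosome 13. Tubb2a had 522 and 591 CPM in the E12.5 libraries, 789 and 662 in those of E14, 1370 and 1351 in those of E15.5, 1435 and 1491 in those of E17, and 2384 and 2249 in those of P0. Tubb2b had 882 and 974 CPM in the E12.5 libraries, 1280 and 1074 in those of E14, 2100 and 2089 in those of E15.5, 2098 and 2177 in those of E17, and 3066 and 3018 in those of P0. For both, the libraries of E14, E15.5 and P0 lay above those of the stage before. From E14 to E15.5 Tubb2a rose by 0.91 ± 0.11 in log2 (limma-voom adjusted p = 0.000590) and Tubb2b by 0.84 ± 0.11 (adjusted p = 0.000715). From E12.5 to P0 the fold change was 4.17 for Tubb2a and 3.29 for Tubb2b, with limma-voom adjusted p of 2.14e-06 and 4.16e-06.

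The ratio of Tubb2a to Tubb2b counts within a library was 0.592 and 0.607 in the E12.5 libraries, 0.616 and 0.617 in those of E14, 0.653 and 0.647 in those of E15.5, 0.684 and 0.685 in those of E17, and 0.777 and 0.745 in those of P0. This ratio compares counts that were not divided by length, so its size has no meaning, but its drift toward Tubb2a does not depend on the scaling between libraries. Reads shared between the 2 genes were not checked for on alignments. Summed as 1 feature, Tubb2a and Tubb2b rose by 1.86 ± 0.11 in log2 from E12.5 to P0 (limma-voom adjusted p = 3.13e-06).

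Tubb4a and Tubb6 had fewer counts. Tubb4a, a class IV beta tubulin known from neurons and oligodendrocytes, had 50.9 and 63.0 CPM in the E12.5 libraries, 82.5 and 63.0 in those of E14, 174 and 162 in those of E15.5, 168 and 175 in those of E17, and 282 and 260.5 in those of P0. Tubb6, a class V beta tubulin, had 44.7 and 45.5 CPM in the E12.5 libraries, 57.2 and 45.3 in those of E14, 85.3 and 80.8 in those of E15.5, 86.1 and 86.7 in those of E17, and 139 and 134 in those of P0. Libraries of E12.5 and E14 overlapped for Tubb6 and all but met for Tubb4a, and those of P0 lay clear above the rest for both. Tubb4a showed the highest fold change of the 10 genes, 2.34 from E14 to E15.5 (log2 1.23 ± 0.15, limma-voom adjusted p = 0.000535) and 4.77 over the whole course (log2 2.25 ± 0.15, limma-voom adjusted p = 5.79e-06). Tubb6 rose by 0.71 ± 0.12 in log2 from E14 to E15.5 (limma-voom adjusted p = 0.00230) and by 1.60 ± 0.12 from E12.5 to P0 (adjusted p = 1.01e-05 in limma-voom). Oligodendrocyte lineage markers, of which 6 of 10 passed the filter, summed to between 30.7 and 43.5 CPM up to E15.5, 65.1 and 80.4 at E17, and 119 and 148 at P0, and their part in the level of Tubb4a was not tested.

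Tuba1a encodes the alpha tubulin that predominates in newborn neurons. It had 2276 and 2549 CPM in the E12.5 libraries, 2955 and 2464 in those of E14, 4685 and 4438 in those of E15.5, 4554 and 4687 in those of E17, and 8429 and 6028 in those of P0. E12.5 overlapped E14 and E15.5 overlapped E17, and the P0 libraries were highest but stood far apart. From E14 to E15.5 Tuba1a rose by 0.76 ± 0.16 in log2, or 1.69-fold (limma-voom adjusted p = 0.00799). Over the whole course it rose by 1.58 ± 0.16, or 2.98-fold (limma-voom adjusted p = 6.49e-05). Without P0 replicate 1, the shallowest library, the last value was 1.33.

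Tuba1b and Tuba1c encode alpha tubulins that are nearly identical in sequence and are made in many tissues. Tuba1b had 1950 and 2219 CPM in the E12.5 libraries, 2481 and 2012 in those of E14, 3644 and 3432 in those of E15.5, 3529 and 3647 in those of E17, and 6578 and 4690 in those of P0. Tuba1c had 1904 and 2198 CPM in the E12.5 libraries, 2456 and 2006 in those of E14, 3712 and 3491 in those of E15.5, 3558 and 3652 in those of E17, and 6649 and 4641 in those of P0. Both followed Tuba1a, with a rise from E12.5 to P0 of 1.43 ± 0.17 in log2 for Tuba1b (limma-voom adjusted p = 0.000144) and of 1.45 ± 0.18 for Tuba1c (adjusted p = 0.000157).

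The counts of Tuba1b and Tuba1c were nearly equal. They differed by 0.146% to 2.34% of the larger count in every library, with ratios of Tuba1c to Tuba1b between 0.977 and 1.02. Among 105 pairs of the 15 tubulin genes whose counts averaged 100 or more, this was the single pair within 5% in all 10 libraries. Over 9215 such genes of any kind, 44 of 42453505 pairs met the same limit, and the 4 pairs with the most counts were copies of histone genes. The study kept reads that align to several places, and its methods name DeepShape-prime, which estimates abundance per transcript isoform, with tximport to sum the estimates by gene. Reads of near-identical genes can be split by such estimates, and no alignments were examined here, so the values of Tuba1b and Tuba1c are uncertain singly. Of the 105 pairs, those of Tuba1a with Tuba1c and with Tuba1b had the next steadiest ratios. The SD over libraries of their log2 ratio was 0.054 and 0.067, beside 0.020 for Tuba1b with Tuba1c. Reads shared with Tuba1a were not checked for either. Tuba1b also overlaps the long noncoding RNA gene Gm41396 in RefSeq GRCm38.p6.

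The upstream sequences of this pair are shown because, unlike the counts, they differ. Both genes lie on chromosome 15, as does Tuba1a. The stretches and capitals are as for Tubb3 and Tubb5.
Tuba1b (chr15:98934391-98934510, minus strand): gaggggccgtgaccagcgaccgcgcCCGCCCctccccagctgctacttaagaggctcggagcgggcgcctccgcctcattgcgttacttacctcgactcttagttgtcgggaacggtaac
Tuba1c (chr15:99029771-99029890, plus strand): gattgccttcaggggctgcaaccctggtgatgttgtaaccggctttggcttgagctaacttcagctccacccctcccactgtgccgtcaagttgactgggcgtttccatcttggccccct
Tuba1b held GC boxes, read on the other strand, 217 and 95 bases upstream, while Tuba1c held no GC box within 250 bases and a CCAAT box, read on the other strand, 151 bases upstream, outside the stretch shown. GC content was 65.0% for Tuba1b and 57.5% for Tuba1c. In the 250 bases before the start of the 7 genes that matched the promoter table (Tuba1a, Tuba1b, Tuba1c, Tubb2a, Tubb3, Tubb4a and Tubb5), a GC box occurred in 4 (Tuba1a, Tuba1b, Tubb2a and Tubb3), beside 32.74% of all 32851 promoters. A CCAAT box occurred in 4 of the 7 (Tuba1a, Tuba1c, Tubb3 and Tubb5; 33.85% of all), a TATA box (TATAAA) in Tubb2a alone (12.37% of all) and an E box (CANNTG) in 5 (66.22% of all). Tubb4a, whose level rose the most, held none of the 4 motifs.

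Tuba1a was less tied to the other 2 alpha tubulin genes. Its ratio to Tuba1b was 1.17 and 1.15 at E12.5 and 1.19 and 1.23 at E14, then 1.29 in each of the E15.5 libraries and between 1.28 and 1.29 at E17 and P0. Summed as 1 feature, Tuba1a, Tuba1b and Tuba1c rose by 0.71 ± 0.17 in log2 from E14 to E15.5 (limma-voom adjusted p = 0.0130) and by 1.49 ± 0.17 over the whole course (limma-voom adjusted p = 0.000110). These sums do not depend on how reads were divided among the 3 genes.

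**Figure D2:**
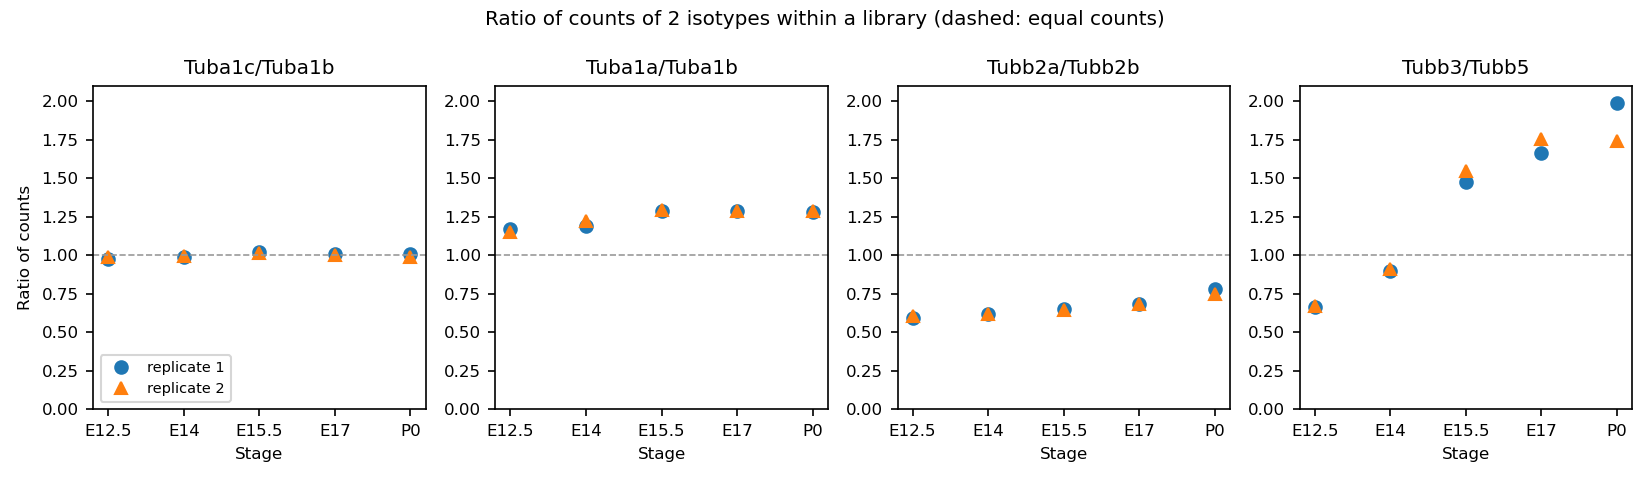
Ratio of the counts of 2 isotypes within each library, against stage, for Tuba1c over Tuba1b, Tuba1a over Tuba1b, Tubb2a over Tubb2b and Tubb3 over Tubb5. Circles and triangles are replicates 1 and 2, all panels share 1 axis from 0, and the dashed line marks equal counts. Tuba1c over Tuba1b stays between 0.977 and 1.02, and Tubb3 over Tubb5 climbs from 0.664 and 0.673 at E12.5 to 1.99 and 1.74 at P0.

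Tubg1 encodes the main gamma tubulin of dividing cells. It had 16.8 and 17.7 CPM at E12.5, 17.8 in each E14 library, 17.1 and 15.7 at E15.5, 13.9 and 12.1 at E17, and 12.6 and 11.1 at P0. Both libraries of E17 and P0 lay below all 6 libraries of the earlier stages, while E17 and P0 overlapped. From E12.5 to P0 it fell by 0.57 on the log2 scale (SE 0.12, limma-voom adjusted p = 0.00355), and from E12.5 to E17 by 0.41 (SE 0.12, adjusted p = 0.0173 in limma-voom). With library sizes left unscaled, the value from E12.5 to P0 was -0.050 (limma-voom adjusted p = 0.735) and that from E12.5 to E17 was 0.0063 (adjusted p = 0.966), while the median gene moved by 0.51 and 0.40. Relative to the median gene, the log2 value of Tubg1 at P0 was -0.56 with either scaling. Scaling shifts all genes of a contrast nearly alike, so this agreement was fixed in advance and is no support for the fall. The change from E12.5 to P0 was also not called with sample quality weights (-0.54, limma-voom adjusted p = 0.0617) or in a fit on the libraries of E12.5 and P0 alone (-0.55, adjusted p = 0.0573 in limma-voom). The change from E12.5 to E17 was not called without E12.5 replicate 2 (-0.37, adjusted p = 0.0946 in limma-voom) or without E17 replicate 2 (-0.31, limma-voom adjusted p = 0.123).

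Stage by stage, the rise fell into 2 steps. Calls required a limma-voom adjusted p below 0.05 together with a change of 1.25-fold or more. From E12.5 to E14, 0 of the 10 genes were called, beside 0.497% of all 13484 genes tested called higher and 0.141% called lower. The median log2 fold change of the 10 was 0.17, and Tubb2a, Tubb2b and Tubb3 had an unadjusted p under 0.05. edgeR also called 0, and DESeq2 called 1, Tubb3, at a log2 fold change of 0.47 (adjusted p = 0.00227). Over all genes, edgeR called 73 of 13484 higher and DESeq2 297 of 8255, beside 67 of 13484 in limma-voom. Tubb3 was also called in limma-voom without P0 replicate 1 or without P0 replicate 2, at a log2 value of 0.48 in each. Both of these fits called more of all genes than the fit of all 10 libraries.

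From E14 to E15.5, 9 of the 10 genes were called higher and 0 lower, beside 16.5% and 19.6% of all genes tested. Tuba1b and Tuba1c, with their nearly equal counts, are both in this and each later count of 8 or 9 genes called higher. Such counts are therefore not of separate observations. The median was 0.73 in log2, and the median over all genes was -0.0086. Tubg1, at -0.11 (limma-voom adjusted p = 0.480), was the exception. In the fits that follow, calls over all genes were fewer as well. Calls fell to 5 without E14 replicate 2 or without E15.5 replicate 1, as Tuba1a, Tuba1b, Tuba1c and Tubb5 then had adjusted p between 0.0586 and 0.148 in limma-voom, at log2 values between 0.28 and 0.72.

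From E15.5 to E17, 0 of the 10 were called, beside 5.61% of all genes called higher and 3.43% lower. Log2 fold changes lay between -0.33 for Tubg1 and 0.10 for Tubb2a, with a median of 0.020, and Tubg1 was the 1 gene with an unadjusted p under 0.05. edgeR and DESeq2 called 0 as well. Tubg1 was called in limma-voom when P0 replicate 1 or P0 replicate 2 was left out, at log2 values of -0.33 and -0.34. Both of these fits also called more of all genes lower than the fit of all 10 libraries.

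From E17 to P0, 9 of the 10 were called higher and 0 lower, beside 9.46% and 11.1% of all genes tested. The median was 0.63 in log2, from 0.37 for Tubb5 to 0.66 for Tubb2a among the 9, and Tubg1 was at -0.16. These calls depended on single libraries, as did those over all genes. Calls over all genes were also fewer in each fit of the next 2 sentences. Leaving out E17 replicate 1 left 0 calls, leaving out E17 replicate 2 left 2, and leaving out either of the E15.5 libraries, replicate 1 or replicate 2, left 5. A fit on the 4 libraries of E17 and P0 alone called 0 of the 10, and 0 of all genes, although 2962 genes had an unadjusted p under 0.05. Across the fits that left out 1 library, Tubb3 kept log2 values between 0.45 and 0.57, Tubb2b between 0.48 and 0.55 and Tuba1a between 0.39 and 0.90. Without P0 replicate 1, Tuba1b was at 0.39 and Tuba1c at 0.37, beside 0.64 and 0.63 with all libraries. Neither was then called, although more of all genes were. Their highest values over the fits without 1 library were 0.90 and 0.91.

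Against E12.5, 9 genes were called higher at E15.5 and 0 lower (22.2% and 24.0% of all genes), 8 higher and Tubg1 lower at E17 (26.9% and 27.8% of all), and 9 higher at P0 (30.1% of all). With Tubg1, which was lower, all 10 were called at P0, beside 62.1% of all genes called either way. Tubb5 was the gene not called at E17, at 0.25 ± 0.10 in log2 (limma-voom adjusted p = 0.0632). The median over the 10 genes at P0 was 1.59 in log2, beside -0.013 over all genes. All 10 genes stayed called at P0 in each fit without 1 library, although Tubg1 did not under the alternatives given above. The F test over all stages called 10 of 10, beside 63.8% of all genes.

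**Figure D3:**
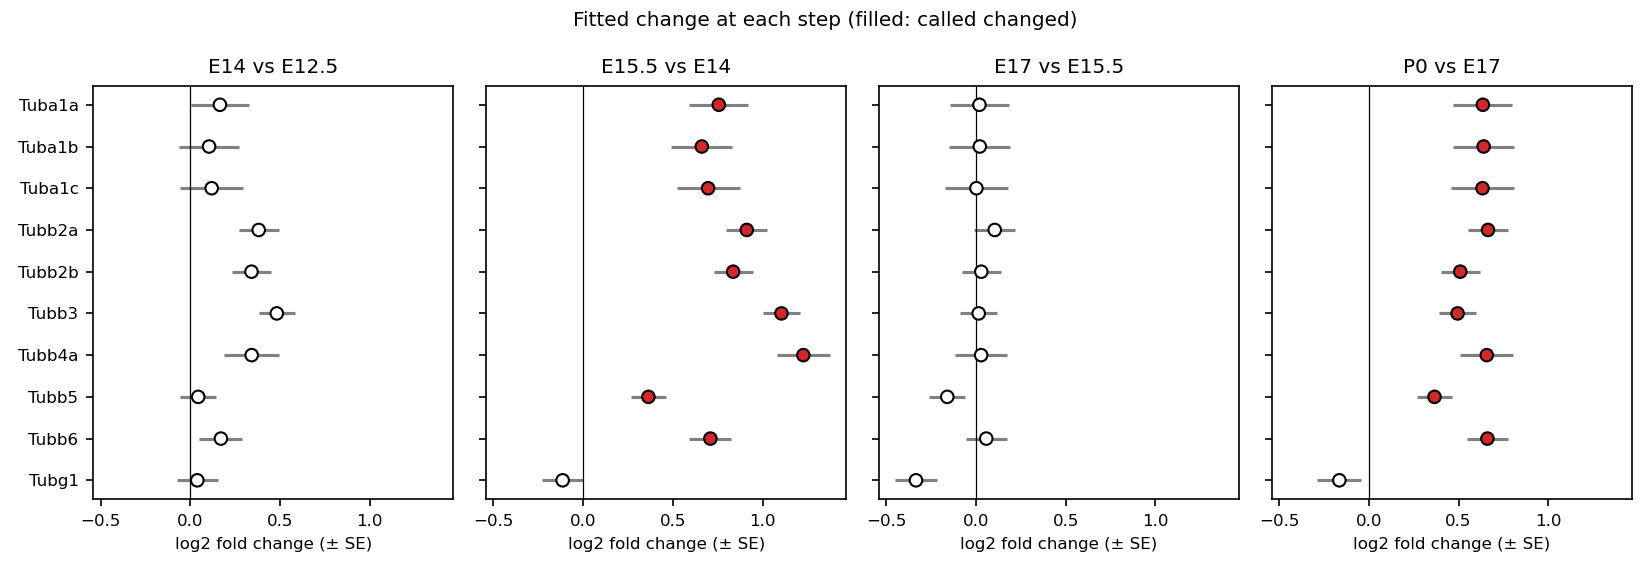
Fitted log2 fold change of each tubulin gene (limma-voom) at the 4 steps between adjacent stages, with 1 SE on either side. Filled points mark called changes, and the vertical line marks no change. Filled points appear from E14 to E15.5 and from E17 to P0, for 9 genes each, with Tubb4a at 1.23 and Tubb5 at 0.36 as the ends of the first range.

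Neuron markers were higher at later stages. The 10 neuron markers (among them Map2, Dcx and Stmn2) summed to 1548 and 1695 CPM in the E12.5 libraries, 2220 to 2246 in those of E14, 5401 to 5759 in those of E15.5, 6181 to 6518 in those of E17, and 7297 to 9074 in those of P0, and all 10 were called higher from E14 to E15.5, 4 from E15.5 to E17 and 6 from E17 to P0. Map2, Dcx, Stmn2 and Syt1 were not among these 6, with log2 values of 0.14, 0.027, 0.37 and -0.32. At the step from E15.5 to E17, 4 of the 10 neuron markers and 0 of the 10 tubulin genes were called higher. Between these stages the sum of neuron markers climbed without overlap. The share of counts held by the 10 tubulin genes was also just higher without overlap, and a relation between these sums was not tested. Radial glia markers summed to 2193 to 2254 CPM at E12.5, 2174 to 2233 at E14, 2135 to 2297 at E15.5, 2379 to 2507 at E17 and 1455 to 1993 at P0. Of the 10, 8 were called lower and 1 (Fabp7) higher from E14 to E15.5, a step at which their sum overlapped. The 12 markers of the ganglionic eminence summed to between 56.9 and 91.8 CPM at E12.5 and E14 and to between 163 and 242 from E15.5 on, with 6 called higher and 1 lower at E15.5.

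Markers of several other cell types had lower footprint levels from E15.5. Choroid plexus markers summed to 293 to 354 CPM at E12.5, 1168 to 1176 at E14 and 8.52 to 17.7 from E15.5 on, with 8 of 8 tested called lower at E15.5. Meningeal fibroblast markers went from 84.5 to 130.0 CPM at E12.5 and E14 to 7.28 to 19.0 later (10 of 10 lower at E15.5), and endothelial markers from 67.9 to 94.8 CPM to 17.1 to 43.4 (9 of 10 lower). Red blood cell markers summed to 10040 to 11610 CPM at E12.5 and E14, 6906 to 7422 at E15.5 and E17, and 1439 to 1862 at P0, with 6 of 9 tested lower at E15.5. Microglia markers were an exception, with 27.8 to 33.2 CPM at E12.5 and E14, 19.2 to 25.8 at E15.5 (6 of 9 tested lower), 30.3 to 34.3 at E17 and 23.7 to 28.5 at P0. The part of these cell types in the levels of the tubulin genes was not tested.

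The makeup of beta tubulin footprints shifted with stage. For this comparison the counts of each gene were taken as a share of all beta, or all alpha, tubulin counts in the same library, which does not depend on scaling between libraries. Because counts were not divided by length, only changes in a share are read. The 4 libraries of E12.5 and E14 were compared with the 6 of E15.5, E17 and P0 by a two-sided exact permutation test, whose smallest possible p is 0.00476, with adjustment over the 14 isotypes tested. Libraries of different stages are not replicates of 1 condition, and the division at E15.5 was set with earlier results of these data known. The SDs of early and late shares and the exact p-values therefore hold differences between stages as well as between pools.

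Tubb5 held 30.9% and 30.8% of beta tubulin counts in the E12.5 libraries, 25.8% and 26.7% in those of E14, 19.7% and 19.3% in those of E15.5, 17.7% and 17.2% in those of E17, and 15.0% and 16.5% in those of P0. Tubb3 held 20.5% and 20.7% at E12.5, 23.2% and 24.3% at E14, and between 28.7% and 30.2% in the 6 later libraries. The share of Tubb5 was thus lower at each later stage without overlap, whereas the libraries of E15.5, E17 and P0 overlapped in that of Tubb3. Between early and late libraries, Tubb5 went from 28.6% ± 2.7 (SD, n = 4) to 17.6% ± 1.8 (SD, n = 6) and Tubb3 from 22.2% ± 1.9 to 29.5% ± 0.52, each with an exact permutation p of 0.00476 and an adjusted p of 0.00833.

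Tubb2a gained 3.60 points of share, from 16.2% to 19.8% (exact permutation p = 0.00952, adjusted p = 0.0148), Tubb2b gained 1.71 points, from 26.6% to 28.3%, and Tubb4a 0.726 points, from 1.63% to 2.36% (exact permutation p = 0.00476 and adjusted p = 0.00833 for each of the latter). Tubb4b, a class IV isotype outside the 10 genes that is known from many tissues, went from 3.62% to 1.31% of beta tubulin counts (exact permutation p = 0.00476, adjusted p = 0.00833). The share of Tubb6 was 1.22% ± 0.085 in early and 1.18% ± 0.079 in late libraries, a difference that the test did not call (exact permutation p = 0.424, adjusted p = 0.477).

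Shares of alpha tubulin moved by little. Tuba1a went from 37.2% ± 0.60 (SD, n = 4) to 39.0% ± 0.11 (SD, n = 6), Tuba1b from 31.5% to 30.3% and Tuba1c from 31.1% to 30.5%, each with an exact permutation p of 0.00476 and an adjusted p of 0.00833. The shares of Tuba1b and Tuba1c carry the uncertainty of their near-equal counts, and reads that Tuba1a may share with them were not checked for. Tuba3a, Tuba3b, Tuba4a and Tuba8 each held under 1% of alpha tubulin counts, and the small falls in share of Tuba8 and Tuba3a (adjusted p = 0.0467 and 0.0485, exact permutation) were lost in most fits without 1 library. The ratio of alpha to beta tubulin counts was 1.83 and 1.85 in the E12.5 libraries, 1.71 and 1.61 in those of E14, 1.60 and 1.53 in those of E15.5, 1.59 and 1.57 in those of E17, and 1.99 and 1.46 in those of P0. The ratio was lower at each stage from E12.5 to E15.5 without overlap between libraries, and E17 lay within the range of E15.5. The 2 libraries of P0 held both extremes, so no change to P0 can be read.

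**Figure D4:**
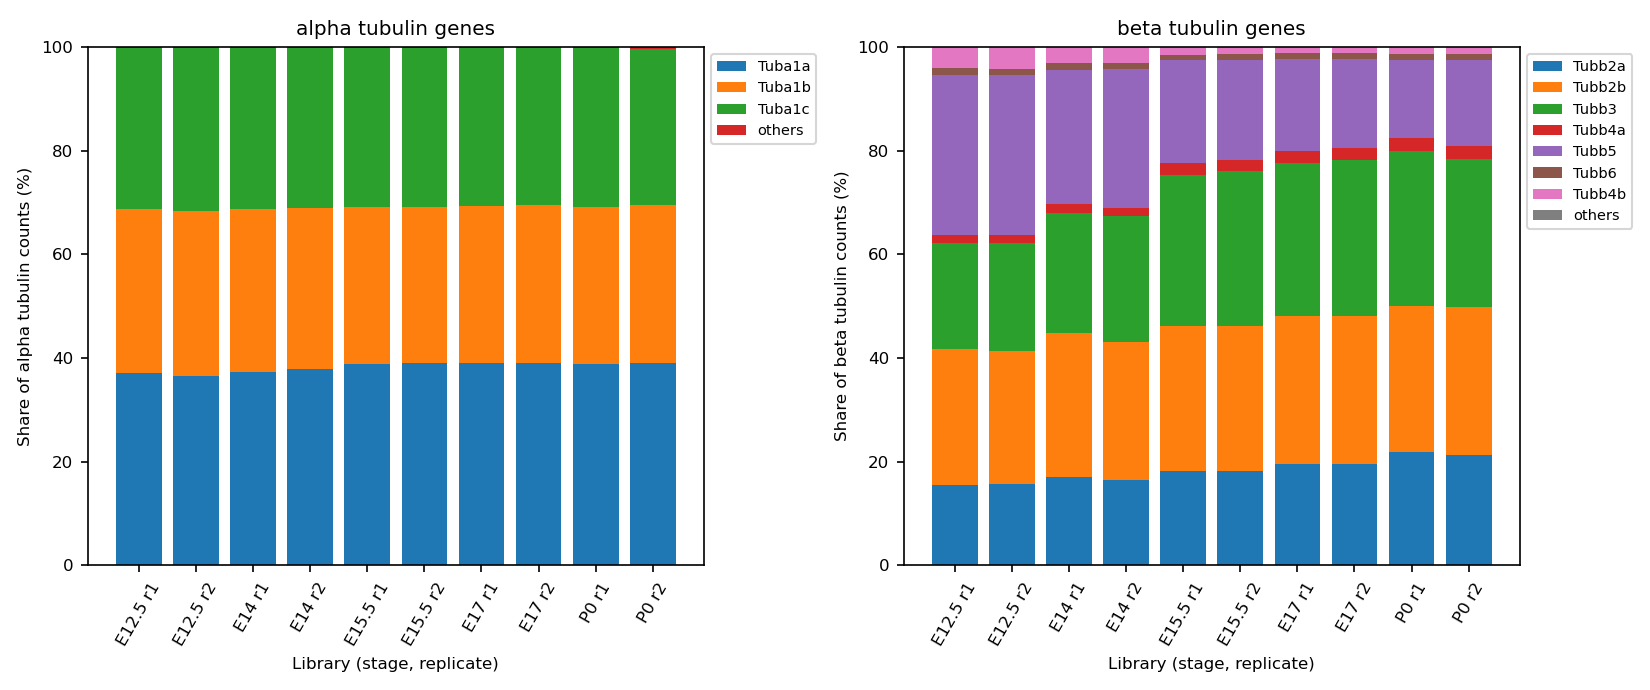
Share of each gene in all alpha tubulin counts (left) and all beta tubulin counts (right) of a library, in percent, for the 10 libraries by stage and replicate (r1 and r2). Bars stack to 100%, and genes outside the named ones are drawn as others. The band of Tubb5 narrows from 30.9% to 15.0% and 16.5%, that of Tubb3 widens from 20.5% to 29.8% and 28.7%, and the alpha tubulin bands stay near even.

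The genes most like 4 of the tubulins across libraries were found by the root mean square difference of centred log2 CPM over the 10 libraries, among the 9215 genes whose counts averaged 100 or more. All points share the same libraries, and the difference is a description with no test. Tubb3 was nearest to Dpysl5 (0.0588), Dpysl3 (0.0610) and Crmp1 (0.0618), which are all members of the collapsin response mediator family of cytosolic proteins. Tuba1a was nearest to Dpysl2 (0.0735), another member of that family, followed by Zmiz2 (0.0957) and Tbc1d16 (0.0971), apart from Tuba1c (0.0509). Tubb2b was nearest to Snap47 (0.0787), Gdap1l1 (0.0869) and Cpeb4 (0.0876). Among the 3 genes nearest to Tubb5 were Atg7 (0.0631) and Kctd1 (0.0647). For Tubb3, Tubb2b and Tubb5 the nearest tubulin was farther off than these, with 0.113 to Tubb2a, 0.114 to Tubb6 and 0.158 to Tubg2.

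Of the 10 other tubulin genes, 8 passed the filter, and Tubb1 and Tubal3 did not. From E12.5 to P0, Tuba4a (log2 fold change 1.54, limma-voom adjusted p = 0.000876), Tuba3b (1.96, adjusted p = 0.00500) and Tubg2 (0.56, adjusted p = 0.0149) were called higher. Tuba3b was near the floor, with 9 counts in each E12.5 library and 8 and 76 counts in replicates 1 and 2 of P0. Tube1, which encodes epsilon tubulin (-1.24, limma-voom adjusted p = 0.00545), and Tubd1, which encodes delta tubulin (-1.16, adjusted p = 0.00860), were called lower, and both proteins are known from centrioles. Tuba8 (0.74, limma-voom adjusted p = 0.117) and Tuba3a (0.83, adjusted p = 0.0786) were not called. Tubb4b had 134 and 158 CPM at E12.5, 87.7 and 92.8 at E17 and 141 and 139 at P0, and its value from E12.5 to P0 was -0.056 (limma-voom adjusted p = 0.681). Tubg2 counts were 0.209 and 0.240 of those of Tubg1 at E12.5 and 0.509 and 0.499 at P0, and its CPM was between 3.52 and 6.42 in all libraries.

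Genes that fold, modify, nucleate and sever microtubules were counted from lists. As background to these counts, 4058 of all 13484 genes tested were called higher from E12.5 to P0 and 4313 lower. Of 14 genes of tubulin folding, 3 were called higher and 1 lower from E12.5 to P0, with a median of 0.26 in log2. These included the prefoldin subunit Pfdn5 (0.43, limma-voom adjusted p = 0.00186) and the cofactor Tbcd (0.40, adjusted p = 0.0225) among those higher, and Tbcel (-0.70, adjusted p = 0.0349), the 1 that was lower. Without P0 replicate 1, Tbcel was no longer called, and the median of the folding genes was 0.21, beside 0.025 over all genes.

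Of 25 tubulin modifying enzymes, 21 were tested, and 11 were called higher and 1 lower from E12.5 to P0, with a median of 0.97. The glutamate-removing enzyme gene Agtpbp1 went from 22.5 ± 7.7 CPM (SD, n = 2) to 157 ± 51 (log2 2.84 ± 0.29, limma-voom adjusted p = 5.97e-05). The tubulin ligase family members Ttll11 (2.25, adjusted p = 0.00785 in limma-voom) and Ttll4 (-1.64, adjusted p = 8.54e-05) went in opposite directions, and Ttll4 was the 1 gene called lower.

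Of 17 genes of the gamma tubulin ring complex and of augmin, which brings that complex to existing microtubules, 11 were called lower and 0 higher from E12.5 to P0, with a median of -0.73. The largest falls were those of Nedd1, the gamma tubulin anchor (-3.48, limma-voom adjusted p = 0.000282), and the augmin subunit Haus4 (-2.06, adjusted p = 7.28e-05). With library sizes left unscaled, where the median gene was at 0.51, 7 of the 17 were called lower and 5 higher, beside 2506 and 6446 of all 13484 genes. Of 7 severing genes, 2 were called higher, among them Katnal1 at 0.62 (limma-voom adjusted p = 0.0244), and 3 lower, with Fignl1 (-2.83, adjusted p = 5.97e-06) and Katnal2 (-1.84, adjusted p = 0.000724) the lowest. Without P0 replicate 1, more severing genes and more genes of the ring complex and augmin list were called higher, as were more of all genes. The medians were then 0.37 and -0.67, beside 0.025 over all genes.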

How the data were processed

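RPFs were sequenced from 10 neocortex libraries, 2 at each of 5 stages. The deposited values are whole-number counts per gene, made by the authors, who trimmed adapters, collapsed duplicate reads, removed tRNA, rRNA and snoRNA reads with Bowtie 2 and aligned the rest with STAR to GENCODE M12, keeping reads that match several places. The submitters' processing notes name STAR 2.7.0. The methods then name DeepShape-prime for isoform estimates and tximport for gene-level counts. The genome build is not given in the sources used here. Totals ran from 7544404 to 36129988 counts, and 22274 of 22373 identifiers matched a symbol.

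The filter kept the 13484 genes that reached 32 footprints in the sum of 2 libraries of any stage. Counts were scaled by TMM (edgeR 4.0.16) and tested with limma-voom (limma 3.58.1, R 4.3.3) over all 10 libraries with 1 coefficient per stage, two-sided, with Benjamini-Hochberg adjustment over the genes kept. There were 7 contrasts, 4 of them between adjacent stages, and an F test without a fold threshold. Replicate counts differed beyond sampling noise by a chi-square test at every stage, so none was counted as a duplicate. Isotype shares were to be divided by coding length. No table of coding lengths or proteins was used here, so shares are of counts. The code was tested on simulated data.

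The tubulin genes and the lists were chosen with earlier results of these data known. Named genes are the 10 tubulins, the other tubulins that passed the filter, up to 2 called genes with the largest rise and 2 with the largest fall from E12.5 to P0 in each list, and the 3 nearest profiles of 4 tubulins. Of these, 2 genes are not reported here. Tubb4b within the shares, Fabp7 and the histone pairs were named after their values were seen. Alternatives were other scalings, filters, tools (edgeR, DESeq2 1.42.0), weights, a replicate block, summed paralogues and fits without 1 library. Differences between replicates 1 and 2 did not keep a common sign across stages, so the numbers were not taken as pairs. Correlations of these differences ran from -0.668, between E12.5 and P0, to 0.269, between E14 and P0, over 9215 genes.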

Additional observations from a re-analysis of the deposited data

How the results depend on the processing

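Results in this paragraph are log2 fold changes or counts of the 10 tubulin genes called, unless all genes are named. The main fit is limma-voom with TMM over all 10 libraries. With library sizes left unscaled, the median gene shifted by 0.29 from E14 to E15.5 and by 0.51 from E12.5 to P0, and Tubg1 turned to 0.18 from E14 to E15.5 and, against E12.5, to 0.28 at E15.5 and 0.0063 at E17, while the other 9 kept their direction in every contrast that called them. Tubb5 relative to the median gene was 0.37 from E14 to E15.5 under both scalings, an agreement fixed in advance, as scaling shifts all genes nearly alike. From E12.5 to E14, 1 gene (Tubb3) was called with unscaled sizes, DESeq2 or sample quality weights. Of all genes, these called 130 of 13484, 297 of 8255 and 402 of 13484 higher, beside 67 of 13484 in the main fit. From E15.5 to E17, 1 gene (Tubg1) was called with quality weights or with only the stages compared. Of all genes, these called 1543 of 13484 and 1389 of 12488 lower, beside 462 of 13484 in the main fit. At the same step Tuba1c turned to -0.00607 without the count filter, -0.0013 with quality weights and -0.0029 with histone genes left out. The call of Tubg1 from E12.5 to P0 was lost with unscaled sizes (-0.050), quality weights (-0.54) and only the stages compared (-0.55). From E17 to P0, 1 gene was called with quality weights, 0 with only the stages compared, 7 without the count filter and 9 with edgeR or DESeq2. Of all genes, 398 of 13484 were called higher with quality weights and 0 of 12995 with only the stages compared. The numbers were 1139 of 19369 without the filter, 1111 of 13484 with edgeR and 1107 of 13222 with DESeq2, beside 1275 of 13484 in the main fit.

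Leaving out 1 library at a time gave 0 to 1 genes called at the first step (E12.5 to E14), 5 to 9 at the next (to E15.5), 0 to 1 at the third (to E17) and 0 to 9 at the last (to P0). The number of all genes called varied over these fits as well, at every step. Values near 0 changed sign: from E15.5 to E17, Tuba1a ran from -0.027 to 0.058, Tuba1b from -0.029 to 0.064, Tuba1c from -0.049 to 0.046, Tubb3 from -0.030 to 0.063 and Tubb4a from -0.029 to 0.081. From E12.5 to E14, Tuba1b ran from -0.046 to 0.26, Tuba1c from -0.026 to 0.27 and Tubb5 from -0.036 to 0.12. The calls of Tubb5 from E12.5 to E15.5 were lost without E12.5 replicate 1 (0.32) or E15.5 replicate 1 (0.38). Late minus early shares of alpha tubulin, in points, ran from -0.023 to -0.013 for Tuba8, -0.0092 to -0.0045 for Tuba3a, -0.050 to -0.014 for Tuba4a and -0.00061 to 0.0014 for Tuba3b, and the calls of Tuba8 and Tuba3a were lost in 8 of 10 such fits each. Every other share kept its direction and its side of the threshold.

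With the replicate block, 8 genes were called from E17 to P0, as Tubb5 had an adjusted p of 0.0600 in limma-voom, and the share of Tuba8 (-0.017 points) had an adjusted p of 0.0764. The block changed no other call. Of alternatives added after the data were seen, for the lists from E12.5 to P0, unscaled sizes gave 9 folding genes higher and 0 lower, 17 modifying enzymes higher, 5 ring complex and augmin genes higher and 7 lower, and 4 severing genes higher. Over all 13484 genes, unscaled sizes gave 6446 higher and 2506 lower. Without P0 replicate 1, some calls in the lists changed. Median log2 fold changes were then 0.21 for folding genes, 1.00 for modifying enzymes, -0.67 for ring complex and augmin genes and 0.37 for severing genes, beside 0.025 over all genes. Shares divided by coding length were not run. The cause was not tested for any of these changes. Depth limits Tubg1 most, with 116 counts in P0 replicate 1.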
